A study of Mus musculus with 45 samples.

Results

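A set of 33 nuclear receptor genes was examined for binding of REV-ERBα in mouse liver. They are 33 of the 21627 protein-coding genes of chromosomes 1 to 19 and of X. The members were chosen by name from the subfamilies NR1 to NR6, and 16 further nuclear receptor genes, among them Nr1d1, Rora and Ppara, served for comparison. A gene was credited with every peak whose summit lay inside its span or within 10 kb of it. The 45 samples of the series fall into 18 groups, and the 2 peak lists used here come from 8 samples in 2 of them. All 8 are livers of mice of the genotype REV-ERBa3HA/3HA, in which the receptor's own gene carries an epitope tag of 3 HA copies, with no AAV given, taken at zeitgeber time (ZT) 10 or 22, which counts hours from lights on. Each list was made from a pool of 4 samples, per the labels. Nuclei were fixed with formaldehyde and the longer crosslinker EGS, and sheared chromatin was precipitated with anti-HA beads and tagmented with Tn5, as the labels' protocols describe. A further 37 samples, among them anti-HA on untagged liver, were not analysed here, so the share of signal that depends on the tag was not tested. The labels used here give no age of the mice and do not say whether a sample is 1 animal.

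Nuclear receptors are transcription factors, many of which are switched by small fat-soluble ligands such as thyroid hormone, retinoic acid, oxysterols and steroids. Receptors of the NR1 and NR2 subfamilies often bind DNA as heterodimers with a retinoid X receptor (RXR), steroid receptors of NR3 mostly as homodimers, and several NR4, NR5 and NR3 orphan receptors as monomers on an extended AGGTCA core. REV-ERBα, the product of Nr1d1, binds the same kind of core, recruits the corepressor NCOR1 with HDAC3, and represses transcription; its protein is abundant in the liver late in the light phase and scarce late in the dark phase.

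The ZT10 list held 27929 peaks and the ZT22 list 36. Genes known as REV-ERBα targets had strong summits at ZT10, with a highest fold over local background of 89.8 at Arntl, 77.7 at Npas2, 49.1 at Cry1 and 35.9 at Nr1d1 itself. All 8 hepatocyte marker genes had a ZT10 summit, with a median strongest fold of 15.3, beside 2 of 4 neuronal, 2 of 4 retinal, 1 of 3 muscle and 0 of 3 lymphocyte markers. The share over all protein-coding genes was 54.5%. Where a summit was present, the median strongest fold was 7.87 for neuronal, 12.7 for retinal and 4.33 for muscle markers. The retinal marker Gnat1 had a fold of 16.9, above the hepatocyte median. Lists hold only peaks that the authors' caller kept (lowest fold 4.01 at ZT10 and 4.08 at ZT22), so a gene with no summit has no value rather than a value of 0. Each fold is the authors' own value for 1 peak of 1 pool. It has no spread between replicates, and no p-value was computed. Intervals given below are 95% intervals from the number of fragments stacked at a summit and cover counting error only. Members had 83 to 912 fragments at a summit, with a median of 148.

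At ZT10, 26 of the 33 members had a summit (78.8%, exact Clopper-Pearson interval 61.1 to 91.0%), beside 54.5% of all protein-coding genes. Their strongest summits had a median fold of 10.4, beside 7.82 over all genes with a summit. A strongest fold of 10 or more was found at 14 of 33 members (42.4%), beside 19.1% of all genes, and 5 or more summits at 11 members (33.3%), beside 5.56%. Taken one by one, the members' summits were close to the list: the 123 had a median fold of 6.99, beside 6.81 over all ZT10 peaks, and 28.5% of them reached a fold of 10, beside 27%. Members also had more summits per gene, 3 at the median member and 1 at the median gene, with genes without a summit included. Strongest folds at an equal number of summits were not compared. Values ran from 35.9 next to Thra to 4.14 at Nr2e3, and 7 members had no summit (Vdr, Hnf4g, Nr2e1, Nr2f1, Esr2, Pgr and Nr5a1).

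**Figure D1:**
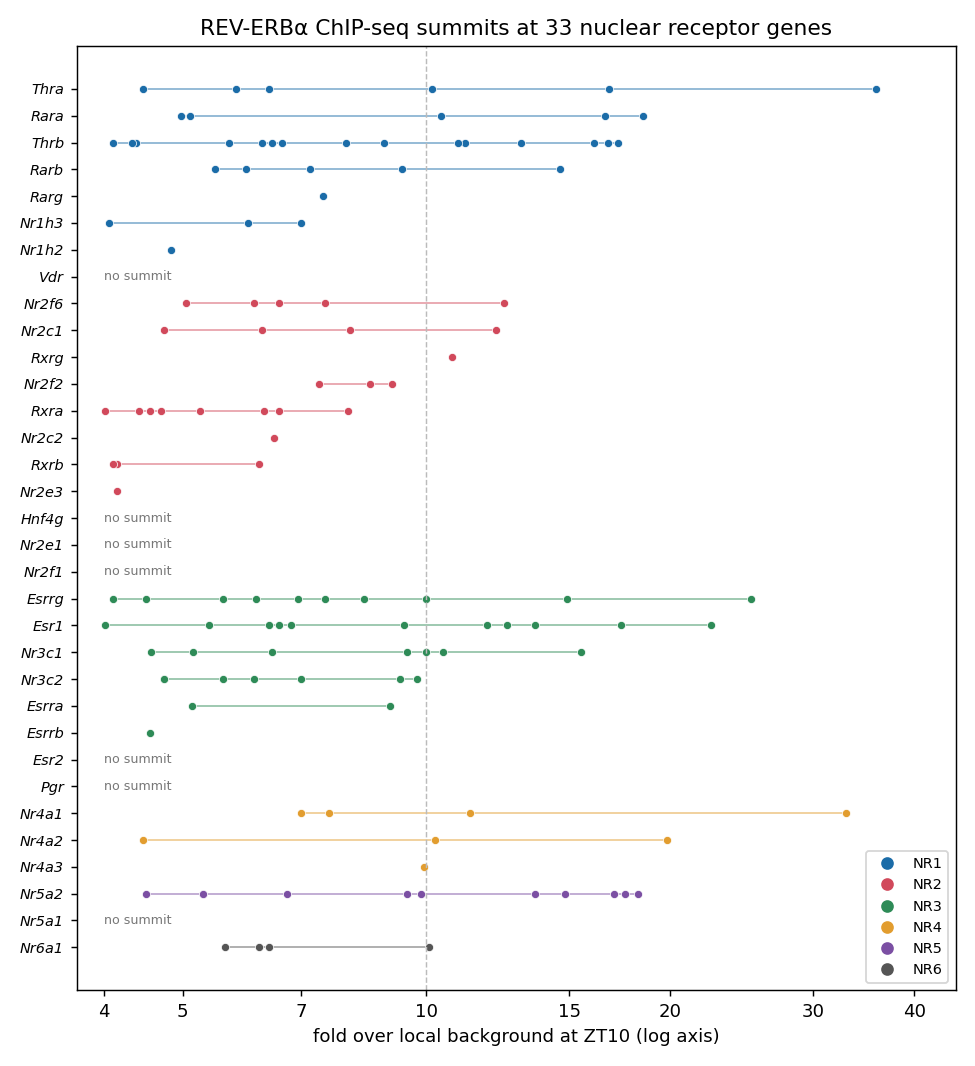
Fold over local background (log axis) of each of the 123 ZT10 summits, by member gene and coloured by subfamily, with a line from the weakest to the strongest summit of a gene and a dashed line at a fold of 10. Thra and Nr4a1 reach above 30, no NR2 gene passes 12.5, and 7 genes have no summit.

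Long genes offer more room for summits, and members were long, with a median span of 47.1 kb beside 17.3 kb over all genes. Over spans and reach together, members held 2.71 summits per 100 kb, beside 1.93 over all genes. Among genes under 20 kb, 8 of 9 members had a summit (88.9%), beside 46.0% of all such genes, with 7.28 and 2.99 summits per 100 kb. Among genes of 20 to 100 kb the shares were nearly equal, 9 of 14 members (64.3%) beside 64.2%, with 3.36 and 2.39 summits per 100 kb. Among genes of 100 kb or more, 9 of 10 members had a summit (90%), beside 65.0%, with 2.14 and 1.08 per 100 kb. The median strongest fold of members with a summit was 8.0, 10.8 and 15.5 in these 3 length classes, beside 7.22, 8.07 and 10.0 over all genes. The density of summits thus fell with length in both, and the members' density was the higher one in each class.

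**Figure D2:**
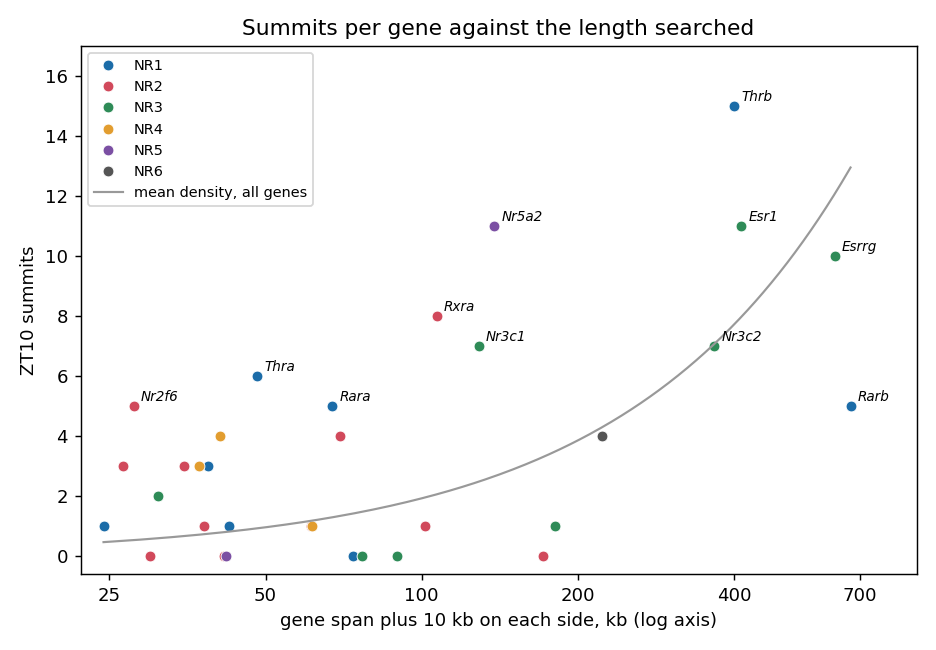
Number of ZT10 summits of each of the 33 members against its span plus 10 kb on each side (log axis), with the mean density over all protein-coding genes, 1.93 per 100 kb, as a line. Thrb with 15 summits, Nr5a2 with 11 and Nr2f6 with 5 lie above the line, and Rarb with 5 lies below it.

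The DNA before the start of a member is shown for the 5 members that had a summit of fold 10 or more within 300 bp of an annotated start. Each line gives the 250 bases before that start, from RefSeq on build GRCm38.p6 (mm10 coordinates), read along the gene's strand and ending at the base before the start. Capitals mark AGGTCA on either strand (TGACCT is its reverse complement) and, in Rarb, a direct repeat of GTTCA with 6 bases between. Only the Nr4a2 start is at the upstream end of the gene's span, with the summit 175 bp from that end. The other printed starts lie inside the span. Their summits were 37005 bp from the upstream end at Rara, 507087 at Rarb, 19986 at Rxrg and 142202 at Nr6a1.
Rara, chr11:98964622-98964871, forward strand: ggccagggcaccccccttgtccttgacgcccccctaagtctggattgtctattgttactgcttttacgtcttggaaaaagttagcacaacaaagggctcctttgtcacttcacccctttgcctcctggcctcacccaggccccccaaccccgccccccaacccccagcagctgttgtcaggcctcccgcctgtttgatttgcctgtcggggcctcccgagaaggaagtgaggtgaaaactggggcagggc
Rarb, chr14:16575477-16575726, reverse strand: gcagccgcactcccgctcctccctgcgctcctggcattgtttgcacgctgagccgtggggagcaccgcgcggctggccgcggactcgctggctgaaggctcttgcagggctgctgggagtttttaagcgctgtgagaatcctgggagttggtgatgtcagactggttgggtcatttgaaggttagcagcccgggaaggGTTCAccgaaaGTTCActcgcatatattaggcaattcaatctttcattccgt
Rxrg, chr1:167618015-167618264, forward strand: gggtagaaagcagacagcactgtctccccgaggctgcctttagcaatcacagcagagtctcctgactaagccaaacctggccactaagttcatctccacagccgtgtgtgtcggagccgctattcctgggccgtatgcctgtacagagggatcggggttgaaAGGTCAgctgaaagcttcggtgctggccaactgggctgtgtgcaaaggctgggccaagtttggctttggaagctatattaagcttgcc
Nr6a1, chr2:38784516-38784765, reverse strand: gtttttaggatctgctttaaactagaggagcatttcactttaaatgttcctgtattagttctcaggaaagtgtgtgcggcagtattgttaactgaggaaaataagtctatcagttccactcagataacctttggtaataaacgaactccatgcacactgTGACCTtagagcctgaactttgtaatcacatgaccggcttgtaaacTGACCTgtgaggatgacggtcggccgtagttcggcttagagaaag
Nr4a2, chr2:57124004-57124253, reverse strand: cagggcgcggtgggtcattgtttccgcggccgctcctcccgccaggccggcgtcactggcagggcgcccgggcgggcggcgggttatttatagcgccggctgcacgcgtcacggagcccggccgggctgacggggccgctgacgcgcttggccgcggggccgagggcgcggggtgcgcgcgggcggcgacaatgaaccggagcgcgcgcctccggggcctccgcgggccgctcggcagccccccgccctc

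The summit at the printed Rxrg start lay 83 bp after it, with a fold of 10.8, and the AGGTCA core began 88 bases before the start. At Nr6a1, whose summit of fold 10.1 lay 256 bp after the start, cores lay 45 and 91 bases before it, both on the opposite strand. The Rarb summit of fold 14.6 lay 232 bp after the start, and the GTTCA repeat 52 bases before it; this repeat is the textbook retinoic acid response element of the gene, through which retinoic acid raises Rarb. The Rara summit of fold 16.6 lay 67 bp before the printed start, and the Nr4a2 summit of fold 10.3 lay 175 bp after its start. Neither printed stretch holds a match, but an AGGTCA lies 33 bases after the Rara start, past the bases shown. GC content of the printed stretches ran from 42.0% in Nr6a1 to 80% in Nr4a2, beside a mean of 53.2% over the 250 bases before all annotated starts.

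These matches are a description of the letters, not of bound sites. Of all 32851 promoter windows of 300 bases (250 before and 50 after the start), 16.3% hold AGGTCA on either strand. It occurs in 7 of the 46 windows of the 29 members found in the promoter table (15.2%), and in 5 of the 27 member windows that lie under a ZT10 peak (18.5%), shares close to that of all windows. The longer TAGGTCA, which includes AGGTCA, is in 2.61% of all windows and in 0 of the 46. The repeat of AGGTCA with 2 bases between, known as RevDR2 and bound by REV-ERB dimers, is in 0.00913% of all windows and in none of the 46, and a repeat of GGTCA with 3 bases between is in 0.067% and in none. The GTTCA repeat is in 25 of all windows (0.0761%), of which the Rarb window is the one that belongs to a member. Thra, Hnf4g, Nr5a1 and Nr3c1 were not found in the promoter table.

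Among the NR1 receptors, 7 of 8 members had a ZT10 summit (exact interval 47.3 to 99.7%, beside 54.5% of all genes). They had 36 summits in all, with a median strongest fold of 14.6, beside 7.82 over all genes. The thyroid hormone receptor genes stood high. Thrb, the main thyroid hormone receptor gene of liver, had 15 summits, the most of any member, and all lay inside its 381 kb span. Its 3 strongest summits had folds of 17.2 (interval 15.7 to 18.9), 16.8 and 16.1, and 6 of the 15 reached a fold of 10. The summit 1284 bp before an annotated start had a fold of 10.9. Thra, which encodes the form that prevails in heart and brain, had 6 summits. Its strongest, of fold 35.9 (33.6 to 38.3), lay 6460 bp past the gene and 89 bp from Nr1d1, which is transcribed from the opposite strand and overlaps the end of Thra. The 5 summits inside Thra had folds of 16.8, 10.2, 6.40, 5.83 and 4.47. With the summit near Nr1d1 set aside, Thra's strongest fold is thus 16.8, and the median over the 26 members stays at 10.4.

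The retinoic acid receptor genes differed among themselves. Rara had 5 summits, with folds of 18.5 (16.8 to 20.4), 16.6, 10.4, 5.11 and 4.97, and its strongest peak, 14944 bp wide on chromosome 11 from 98940647 to 98955590, was the widest of any member. Rarb also had 5, but spread over 671 kb of span and reach (0.745 per 100 kb, beside 7.45 at Rara), with folds of 14.6 (13.1 to 16.3), 9.34, 7.18, 5.98 and 5.48. Rarg had 1 summit, of fold 7.45 (6.36 to 8.68). The oxysterol receptor genes, which control cholesterol efflux and fatty acid synthesis, were among the weaker members. Nr1h3, encoding LXRα, had 3 summits with folds of 6.99, 6.03 and 4.05; the strongest lay where Nr1h3 overlaps Acp2, and the second lay 13 bp from an annotated start of Nr1h3. Nr1h2, encoding LXRβ, had 1 summit of fold 4.83 (3.97 to 5.83), 56 bp before its start. Vdr, the vitamin D receptor gene, had no summit, and the nearest lay 185110 bp from its span.

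The NR2 genes had lower strongest folds than the NR1 genes. A summit was found at 8 of 11 members (exact interval 39.0 to 94.0%, beside 54.5% of all genes), 26 in all. The median strongest fold was 8.53, beside 7.82 over all genes. None passed the 12.5 of Nr2f6. NR2 genes were also shorter, with a median span of 21.6 kb, beside 37.7 kb in NR1 and 134.7 kb in NR3. Their density was 3.66 summits per 100 kb, beside 2.63 and 1.99 in these, and 1.93 over all genes. The part of gene length in the lower folds was not tested. Rxra, which encodes the main RXR of liver and thus the partner of many receptors above, had 8 summits, all with folds between 4.01 and 8.0 (interval of the strongest 6.87 to 9.27). The strongest lay 847 bp before a start, and 3 Rxra peaks were over 5 kb wide (5655, 5674 and 5817 bp). Rxrb had 3 summits with folds of 6.21, 4.14 and 4.10, of which the first lay 93 bp from its start and 215 bp from the neighbouring gene Slc39a7. Rxrg, best known from muscle and brain, had 1 summit, of fold 10.8 (9.44 to 12.2), and so a higher strongest fold than Rxra with an interval that does not reach that of Rxra. Many weak summits at Rxra thus stood beside 1 stronger summit at Rxrg.

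Of the orphan receptors of NR2, Nr2f6, which encodes EAR2, had 5 summits in 27.9 kb of span and reach, 17.95 per 100 kb and the densest of the members. Its strongest lay 514 bp before the start, with a fold of 12.5 (11.0 to 14.0), and the next, 553 bp after the start, had a fold of 7.49; its other 3 had folds of 6.58, 6.12 and 5.05, and the first and last of these lay inside the neighbours Ocel1 and Use1. Nr2c1 (TR2) had 4 summits, the strongest of fold 12.2 (10.8 to 13.7) and 700 bp after its start, and its close relative Nr2c2 (TR4) had 1, of fold 6.49 and 143 bp before its start. Nr2f2 (COUP-TFII) had 3, with folds of 9.06, 8.51 and 7.36, all over 5 kb from its annotated starts. Nr2e3, a photoreceptor gene, had 1 of fold 4.14, 20 bp outside its span. Nr2f1 (COUP-TFI), Nr2e1 (TLX, of neural stem cells) and Hnf4g had none, and their nearest summits lay 25323, 59602 and 1197029 bp away.

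Among the NR3 genes, 6 of 8 had a summit (exact interval 34.9 to 96.8%, beside 54.5% of all genes). They had 38 in all, with a median strongest fold of 12.6, beside 7.82 over all genes. The oestrogen receptor genes lay far apart. Esr1, encoding ERα, the form of hepatocytes, had 11 summits, of which 5 reached a fold of 10. The strongest, of fold 22.4 (20.5 to 24.5), lay on chromosome 10 from 4603795 to 4606885, 6939 bp upstream of the gene; the others with folds over 10 had 17.4, 13.6, 12.6 and 11.9 and lay inside it, while the summit 265 bp from a start had a fold of 6.58. Esr2, encoding ERβ, had no summit within reach, and the nearest lay 19069 bp from its span. Pgr, the progesterone receptor gene, had none within 128559 bp.

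The oestrogen-related receptors, orphan receptors that drive genes of mitochondria and fuel use, also differed. Esrrg had 10 summits in a span of 606 kb. The strongest, of fold 25.1 (23.1 to 27.3), was a peak 10941 bp wide on chromosome 1 from 187755373 to 187766313, which lay 111079 bp from the nearest annotated start; the next had folds of 14.9 and 9.98. Esrra had 2 summits, with folds of 9.01 (7.81 to 10.4) and 5.13, and both lay outside its span and inside a neighbour, Catsperz and Prdx5. The stronger was also 627 bp before the annotated start of Esrra, and its peak, 5794 bp wide, covers that start. Assigned to the nearest gene only, Esrra has none. Esrrb had 1 summit, of fold 4.56 (3.73 to 5.53), 92280 bp from its nearest start. Of the corticoid receptors, Nr3c1, encoding the glucocorticoid receptor, had 7 summits in its 109 kb span, with folds of 15.5 (13.9 to 17.3), 10.5, 9.98, 9.47, 6.44, 5.16 and 4.57. Nr3c2, encoding the mineralocorticoid receptor and best known from kidney, also had 7, spread over 347 kb, with folds of 9.73 (8.56 to 11.0), 9.29, 6.99, 6.12, 5.61, 4.74 and 4.74. At equal number, the summits were 5.43 per 100 kb at Nr3c1 and 1.91 at Nr3c2.

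All 3 NR4 genes, immediate-early genes of stress and hormone signals, had a summit (exact interval 29.2 to 100%, beside 54.5% of all genes). They had 8 in all, with a median strongest fold of 19.8, beside 7.82 over all genes. Nr4a1 (NUR77) had the strongest summit that lay nearer to a member than to any other gene, of fold 32.99 (30.6 to 35.5) with 714 fragments. This peak lay on chromosome 15 from 101244469 to 101248403, 7212 bp upstream of the span and 20156 bp before the nearest start in the promoter table. The other 3 summits of Nr4a1 had folds of 11.3, 7.59 and 6.99, the last 227 bp before a start. Nr4a2 (NURR1) had 3, the strongest of fold 19.8 (17.99 to 21.8) and 3719 bp upstream of the gene, and a second of fold 10.3 at the start shown above. The strongest lay nearer to another gene, LOC105244150, at 3028 bp, and the NR4 median of 19.8 is its fold. With this summit set aside, the strongest fold of Nr4a2 is 10.3, at a summit where LOC105244150 overlaps Nr4a2. Nr4a3 (NOR1) had 1, of fold 9.93 (8.67 to 11.3), 1419 bp before a start. In all 3 genes the strongest summit credited was thus upstream of the gene, though at Nr4a2 only with the summit nearer LOC105244150 counted.

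The NR5 genes encode receptors that bind the same DNA core as monomers and are used in different tissues. Nr5a2, encoding LRH-1, a regulator of bile acid and cholesterol metabolism in liver, had 11 summits in 138 kb of span and reach (7.98 per 100 kb). Its folds were 18.2 (16.5 to 20.1), 17.6, 17.1, 14.8, 13.6, 9.84, 9.47, 6.72, 5.29, 5.29 and 4.51. The strongest lay 810 bp after the first start, the third lay 6497 bp upstream of the gene, and 2 of the peaks were 8813 and 13955 bp wide. Nr5a1, encoding SF-1 of the adrenal and gonads, had no summit, the nearest being 60683 bp away inside Nr6a1, whose span lies 8826 bp from Nr5a1. Nr6a1 (GCNF), best known from germ cells and the embryo, had 4 summits, with folds of 10.1 (8.79 to 11.5), 6.40, 6.21 and 5.64.

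Members known in hepatocytes had a summit in 14 of 14 cases (13 counting the nearest gene only or gene ends only, and 10 where −log10 q was 20 or more), with a median strongest fold of 12.3 and 3.91 summits per 100 kb. Those best known from other tissues had one in 5 of 10 (50%), near the 54.5% of all genes, with a median of 9.73, above the 7.82 of all genes, and 1.17 summits per 100 kb, below their 1.93. The 5 were Nr3c2, Rxrg, Nr6a1, Esrrb and Nr2e3. The remaining 9 members, Thra among them, had one in 7 cases, with a median of 14.6. The grouping is a textbook one made for this purpose with earlier results of these data known, so the contrast between the sets is a description only. The counts by nearest gene, gene ends and −log10 q were added after seeing the data. Expression was not measured in these lists, and the sets were not tested against each other. The 2 exact intervals, 76.8 to 100% and 18.7 to 81.3%, overlap.

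**Figure D3:**
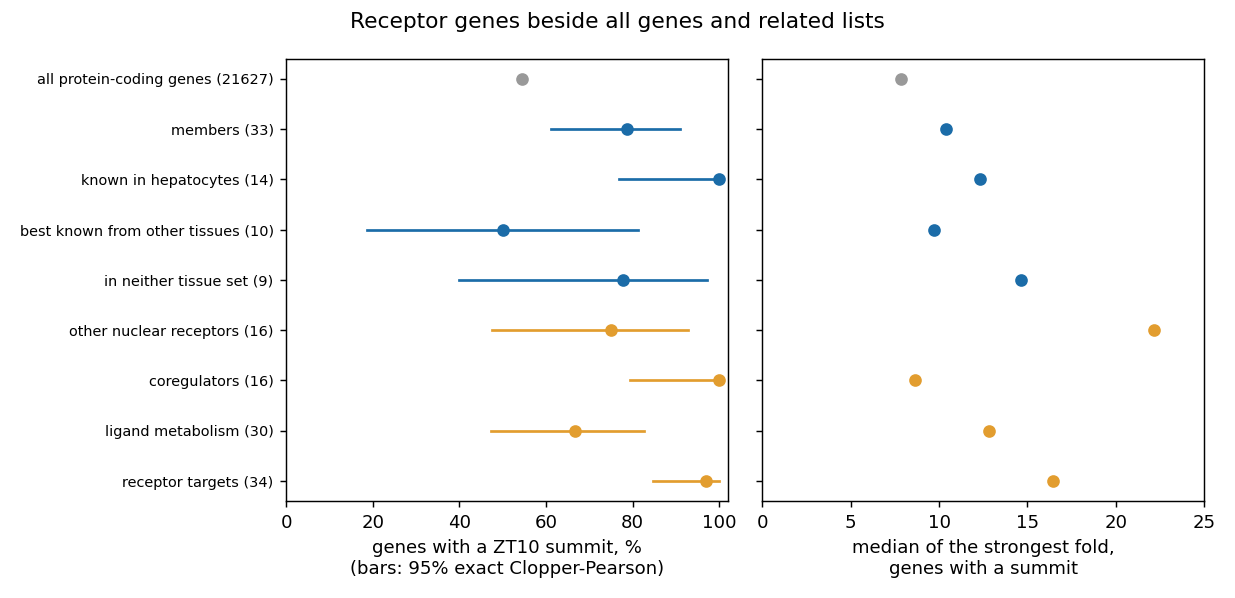
Share of genes with a ZT10 summit (left, with 95% exact Clopper-Pearson intervals) and median strongest fold over genes with a summit (right) for all protein-coding genes, the 33 members, their tissue sets and 4 related lists, with gene numbers in parentheses. The hepatocyte set and the coregulators stand at 100%, and the other nuclear receptors have the highest median, 22.2.

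Ranked by their strongest fold, 24 of the 25 pairs of neighbours among the 26 members had overlapping counting intervals, so most adjacent places in the order are not resolved. The exception was the step from Nr4a1 at 32.99 to Esrrg at 25.1, whose intervals, 30.6 to 35.5 and 23.1 to 27.3, do not meet. The intervals leave out differences between animals, and whether a step of this size exceeds them cannot be told from pooled lists. Summits were unevenly divided: the 7 members with 7 or more summits (Thrb, Esr1, Nr5a2, Esrrg, Rxra, Nr3c1 and Nr3c2) held 69 of the 123.

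Most member summits were more than 1 kb from an annotated start. Of the 110 summits of members with a known start, 20 lay within 1 kb of one, 29 at 1 to 10 kb, 30 at 10 to 50 kb and 31 farther. The median fold was 7.74 within 1 kb and 6.67 farther out. Of the 30 with a fold of 10 or more, 8 lay within 1 kb. These shares were not computed for the summits of all genes, so they do not set the members apart. By gene, 18 of the 29 members with a known start had a summit within 1 kb of one (62.1%), beside 34.5% of all genes with a known start. In the hepatocyte set this was 12 of 13, and in the set best known from other tissues 3 of 9. A summit near the start was thus common among members, while most of their strong summits lay over 1 kb from the starts in the promoter table. That table does not hold every upstream gene end. The Nr4a1 summit of fold 11.3 lay 189 bp inside the upstream end of the span, but 12755 bp from the listed start. For the Thrb summit of fold 10.9 these distances were 451 and 1284 bp.

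**Figure D4:**
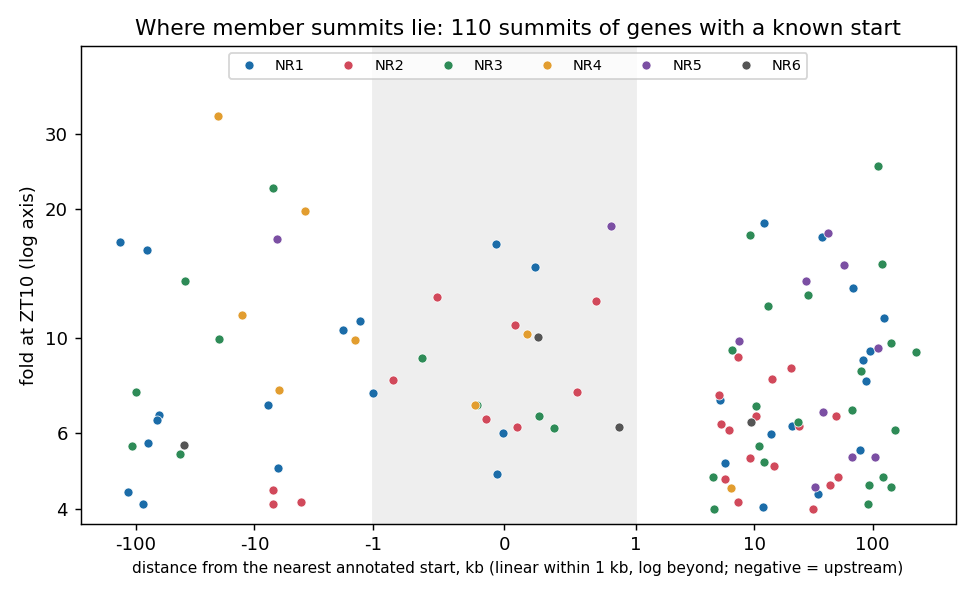
Fold (log axis) of the 110 ZT10 summits of members with a known start against the signed distance to the nearest annotated start in kb (linear within 1 kb, shaded, and log beyond; negative values lie upstream), coloured by subfamily. Of these, 20 lie within 1 kb, and Nr4a1, with the highest fold, 32.99, lies about 20 kb upstream.

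Of the 123 summits, 104 lay inside the member's span (84.6%), beside 59.6% of all pairs of a gene and a summit in its reach, and 26 were also in reach of another protein-coding gene (21.1%, beside 43.4%). Another gene's span held 9 of them, and 10 lay outside the member and nearer to another gene, among them the one at Nr1d1 and the strongest of Nr4a2. The strongest summit was inside the span at 16 members and outside it at 10. The summit farthest outside a span was the Nr4a1 one at 7212 bp, and the nearest to miss the reach of a member that had none was that of Esr2 at 19069 bp. Peaks at members had a median width of 2035 bp, beside 1679 bp over the ZT10 list, and 5 of the 721 peaks wider than 8 kb were at members: Rara with 2, Nr5a2 with 2 and Esrrg with 1. Wide and tall went together at Esrrg, while the Nr4a1 peak, with a higher fold, was 3935 bp wide.

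At ZT22 no member had a summit (0 of 33), beside 0.0694% of all genes, which is 15 genes. The nearest ZT22 summit to any member lay 924778 bp away, and 12 members were on chromosomes with no ZT22 peak. Few ZT10 peaks of the members' strength had a counterpart: of the 7433 ZT10 peaks with a fold from 10 to the members' highest, 8 had a ZT22 peak over them (0.108%), and of the 103 stronger ones, 14 had (13.6%). With a list of 36 peaks, a count of 0 among 33 genes is near the background. The comparison receptors included the one receptor gene with a ZT22 summit, Ppard, at a fold of 6.35 where the ZT10 peak had 49.3. Whether signal below the caller's limit persisted at members at ZT22 was not tested.

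The 16 comparison receptors had a summit in 12 cases (75.0%), a share close to that of the members, but a median strongest fold of 22.2, beside 10.4. Their strongest were Ppard (49.3), Nr0b2, encoding the atypical repressor SHP (36.4), and Rora, an activator on the DNA sites of REV-ERB (35.9, with 33 summits). Those without a summit included Rorb, Nr1h5 and Nr0b1. All 16 coregulator genes had a summit (exact interval 79.4 to 100%, beside 54.5% of all genes), with a median of 8.62, beside 7.82. Among the strongest were Nrip1 (27.1), encoding the corepressor RIP140, and Tbl1xr1 (20.8), encoding a subunit of the NCOR complex.

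Genes that make, carry or clear receptor ligands had a summit in 20 of 30 cases (66.7%), with a median strongest fold of 12.8. The exact interval of this share, 47.2 to 82.7%, holds the 54.5% of all genes. The strongest were Cyp26a1, which clears retinoic acid (30.1), Serpina6, the corticosteroid carrier of blood (27.1), and Aldh1a1, which makes retinoic acid (24.95, with 10 summits). Textbook targets of the member receptors had a summit in 33 of 34 cases (97.1%, beside 54.5% of all genes), with a median of 16.5. The exception was Mylip, an LXR target. The strongest were Scarb1, the liver's receptor for high-density lipoprotein (41.7), Nr0b2 (36.4) and Stra6 (34.6), a retinol transporter. By receptor, a summit was found at 5 of 5 thyroid hormone targets, 7 of 8 LXR targets, 5 of 5 retinoid targets, 7 of 7 glucocorticoid targets, 5 of 5 ERR targets and 4 of 4 LRH-1 targets. Set beside the receptor genes themselves, the targets' median strongest fold lay above them in some groups and below in others. It was 14.7 for LXR targets, beside 6.99 at Nr1h3 and 4.83 at Nr1h2, and 28.4 for LRH-1 targets, beside 18.2 at Nr5a2. Of the 34 summits of LXR targets 31 were distinct, and Abcg5 and Abcg8 had the same strongest fold, 19.6. For retinoid targets the median was 26.5, beside 18.5, 14.6 and 7.45 at Rara, Rarb and Rarg, and Rarb is itself 1 of the 5 targets. For thyroid hormone targets it was 13.1, beside 17.2 at Thrb and 16.8 inside Thra, and for glucocorticoid targets 13.98, beside 15.5 at Nr3c1. For ERR targets it was 11.2, beside 25.1 at Esrrg, 9.01 at Esrra and 4.56 at Esrrb. These lists hold many genes active in hepatocytes. The 8 hepatocyte markers had a median of 15.3, but they are not a separate reference. Cyp7a1 and Tat among them are also targets here, and Ttr is also a ligand gene. The part of hepatocyte activity in these folds was not tested.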

How the data were processed

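ChIP-seq of HA-tagged REV-ERBα was deposited as 1 peak list per time (ZT10 and ZT22), each from 4 pooled samples, per the labels. Tools named without a role in the submitters' processing notes are MACS2 2.1.2, BWA 0.7.17, deepTools 3.3.0, SAMtools 1.9, Picard 2.18.12, cutadapt 2.3 and bcl2fastq 2.17; the build is mm10. The control library was not given in the sources. The deposited fold is the ratio of a summit to its local background, and the lists also hold the authors' −log10 p and −log10 q of each peak. The deposited score is 10 times the −log10 q and was not used. Positions are the authors' own, with peak starts and summits raised by 1 so that bases count from 1.

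Gene spans came from RefSeq (GRCm38.p6), and starts and sequences from its promoter table; all members matched the spans. Summits inside a span or within 10 kb were credited to every such gene. Fragments at a summit were solved from the fold, with a pseudocount of 1, and the −log10 p. Of the ZT10 summits that could be solved, 99.2% came within 0.1 of a whole number. The worth of 1 fragment was chosen to make this share highest, so the share is not a separate check. The solver and the assignment were tested on simulated data, the solver with 1 constant background only. Intervals use Poisson limits of the fragments at 95%; as amplified reads are not independent molecules, they cover counting error only. Motifs were searched on both strands, and the GTTCA repeat was added after the data were seen. Genes are named as follows: the 12 members with the strongest fold, the strongest of each subfamily, members without a summit or with a ZT22 summit, the 3 with the most summits, and the top 3 of each other list, of which some are not reported here; further members' values are given as description. The members and lists were chosen with earlier results of these data known. Alternatives were other reaches, stricter −log10 q or fold, nearest gene only, peak overlap instead of summits, 1 row per interval, and leaving out members that overlap another gene. Python 3.11.15, pandas 2.3.3, numpy 2.4.6, SciPy 1.17.1 and matplotlib 3.10.9 were used.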

Additional observations from a re-analysis of the deposited data

How the results depend on the processing

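No paired analysis was possible because each time has 1 list from 4 pooled samples, and for the same reason no replicate could be left out. Of 59 alternative values, 49 kept within 1.5 times the reported count or within 1.33 of the median fold. The median strongest fold of 10.4 became 12.3 with a reach of 50 kb (10.0 over all genes), 9.04 within 10 kb of gene ends only (7.41), 12.2 and 13.5 with −log10 q held to at least 10 and 20 (8.78 and 11.5), and 17.7 at a fold of at least 10 (14.5). The 123 summits became 54 near ends only, 59 where −log10 q was 20 or more and 35 at a fold of at least 10. Members with a summit numbered 14 at a fold of at least 10 (42.4%, beside 19.1% of all genes). They numbered 20 to 28 of 33 in the other settings with all members. The share of all genes moved too. Where −log10 q was 20 or more, 60.6% of members had a summit, beside 30% of all genes. Near gene ends only it was 66.7%, beside 51.4%, and with a reach of 50 kb 84.8%, beside 70.5%. Members best known from other tissues fell from 5 to 3 of 10 where −log10 q was 20 or more, near the 30% of all genes. Those known in hepatocytes fell from 14 to 10 of 14. For both sets this alternative, like those of nearest gene only and gene ends only, was chosen after seeing the data. Stricter limits and fewer bases searched leave fewer summits by construction. A reach of 50 kb added Nr2f1 and Esr2, and counting the nearest gene only removed Esrra. No alternative gave a member a ZT22 summit. The fewest fragments at a member summit were 83; weaker binding is not listed, and what depth adds to this limit was not tested.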
